A study of Saccharomyces cerevisiae with 6 samples.

Results

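The plasma membrane proton pump of Saccharomyces cerevisiae and its partners are described here by 7 genes out of the 5795 annotated ORFs of the RNA-Seq table. They were chosen by name and function: PMA1 and PMA2, which encode the pump, PMP1, PMP2 and PMP3, which encode very small membrane proteins, and PTK2 and HRK1, which encode protein kinases. All 7 were found, and all 7 passed the filter on low values. RNA-Seq was performed on 2 cultures each of wild-type cells grown in glutamine (WT-Glu), wild-type cells grown in proline (WT-Pro) and dal80Δ cells grown in proline (dal80-Pro). All cells were haploid, carried ura3, his3 and trp1 mutations and were harvested from minimal medium with glucose. The wild-type strain is MATα, whereas the dal80Δ strain (dal80::kanMX) is MATa, so that the loss of DAL80 and the mating type cannot be told apart in the comparison of the strains. Glutamine is a preferred nitrogen source under which nitrogen catabolite repression (NCR) operates, and proline is a poor one under which it is relieved. Dal80 is a GATA factor known as a repressor of NCR-sensitive genes. The paper also reported genes that Dal80 regulates positively.

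Pma1 is an essential P-type ATPase that pumps protons out of the cell at the expense of ATP, and the gradient it builds drives the uptake of amino acids, ammonium, potassium and other solutes by symporters and channels. It is one of the most abundant proteins of the yeast plasma membrane. Its activity rises when glucose is given to the cells, which involves phosphorylation of its C-terminal tail, and the kinase Ptk2, together with the related Hrk1, takes part in this activation. Pma2 is a second isoform of the pump that is normally made in small amounts and is not essential. Pmp1 and Pmp2 are near-identical proteolipids that copurify with the pump and modulate it, and Pmp3, also called Sna1, is an unrelated hydrophobic protein whose loss hyperpolarises the membrane.

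The sequences of the closest copies are shown first, because they set how far the reads of each gene can be assigned. All coordinates are those of build R64 and the sequences are from RefSeq. PMP1 lies on the minus strand at chr3:162945-163067 and PMP2 on the minus strand at chr5:122798-122929. Their whole ORFs are given below from start to stop codon, with capitals at the bases that differ or have no partner in the other gene.
PMP1: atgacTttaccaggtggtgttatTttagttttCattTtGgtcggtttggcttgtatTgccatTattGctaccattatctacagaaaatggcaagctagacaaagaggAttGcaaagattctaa
PMP2: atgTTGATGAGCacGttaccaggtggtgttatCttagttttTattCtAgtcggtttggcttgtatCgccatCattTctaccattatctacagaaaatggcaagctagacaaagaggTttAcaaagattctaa
The 123 bases of PMP1 and the 132 bases of PMP2 aligned over 123 positions, of which 10 differed (91.9% identity), and PMP2 held 9 further bases near its start. None of the 74 windows of 50 nt in PMP1, the length of 1 sequenced read end, occurred elsewhere in the genome, and 10.8% of them came within 2 mismatches of PMP2.

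PMA1 spans 2757 bases on the minus strand (chr7:479910-482666) and PMA2 spans 2844 bases on the plus strand (chr16:482843-485686). The last 60 coding bases of each, which encode the end of the regulated tail, are shown with the bases that differ in capitals.
PMA1: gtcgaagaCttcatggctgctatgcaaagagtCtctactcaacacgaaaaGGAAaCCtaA
PMA2: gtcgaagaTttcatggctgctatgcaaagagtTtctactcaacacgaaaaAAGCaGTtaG
Of these 60 bases 9 differed, and over the whole ORFs 472 of 2744 aligned bases differed (82.8% identity). In PMA1, 38 of 2708 windows of 50 nt (1.40%) occurred unchanged in PMA2. A read end from such a stretch fits both genes, and only uniquely mapped reads were counted. Some uncertainty in the low PMA2 counts remains, since 8.23% of the PMA1 windows lay within 2 mismatches of PMA2. PTK2 (chr10:545787-548243, plus strand) and HRK1 (chr15:822588-824867, minus strand) shared 59.0% of aligned bases, and no 50-nt window of one occurred in the other. Of the HRK1 windows 14 of 2231 (0.628%) occurred elsewhere in the genome, whereas PTK2 and PMP3 (chr4:1013476-1013643, minus strand) had none.

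Each library held between 12304015 and 19968312 reads on ORFs. The deposited values are reads multiplied by 1 factor per library, here called scaled reads, and levels of different genes are compared as scaled reads per nucleotide of ORF. DAL80 itself was at 3537 and 2729 scaled reads in the WT-Pro libraries and at 6.15 and 2.75 in the dal80-Pro libraries, in accordance with the labels. Mating-type markers were also inspected. The α-cell genes MF(ALPHA)1 and STE3 were high in the 4 wild-type libraries, and low in dal80-Pro (23.9 and 25.9 scaled reads for MF(ALPHA)1, 121 and 135 for STE3). The a-cell genes MFA1 and STE2, however, were found in WT-Pro (354 and 388 scaled reads for MFA1, 1131 and 918 for STE2) far above WT-Glu (4 and 4.92 for MFA1, 69.0 and 85.5 for STE2), and they were higher still in dal80-Pro (1259 and 1443 for MFA1, 1894 and 2034 for STE2). Both WT-Pro libraries thus carried transcripts of the other mating type, and the part of this in the results below was not tested. In whole cultures, fewer cells that express a gene and less RNA per cell cannot be told apart.

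The members fell into an abundant and a scarce set, separated by about 2 orders of magnitude per nucleotide of ORF in WT-Glu. PMP1 was at 202 ± 11.9 scaled reads per nucleotide (mean ± SD, n = 2), PMA1 at 146 ± 9.14, PMP2 at 76.3 ± 3.93 and PMP3 at 68.8 ± 7.63. HRK1 was at 0.442 ± 0.0357, PTK2 at 0.374 ± 0.0279 and PMA2 at 0.212 ± 0.0882. The levels of PMP2 (79.1 and 73.6) and PMP3 (63.4 and 74.1) overlapped between libraries, whereas the other neighbours in this order did not overlap. The size of these levels depends on the length used, most of all for the very short ORFs. Per nucleotide of the deposited transcripts, PMP2 was at 28.6 and 27.4 in WT-Glu and PMA1 at 121 and 130, with PMP3 below PMP2. The order of the group means was the same. The deposited transcript of PMP1 is only its ORF, so its level cannot be checked in this way.

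In WT-Pro the order changed within the abundant set and within the scarce set. PMP1 (107 ± 10.1) and PMA1 (41.7 ± 2.53) remained the densest members, PMP3 (34.9 ± 1.12) stood above PMP2 (18.8 ± 0.814), and PMA2 (0.791 ± 0.00258) moved above PTK2 (0.555 ± 0.0408) and HRK1 (0.525 ± 0.0548). In dal80-Pro the means were 86.5 ± 6.58 for PMP1, 41.6 ± 3.60 for PMA1, 37.1 ± 8.03 for PMP3, 17.2 ± 1.69 for PMP2, 0.627 ± 0.126 for PMA2, 0.358 ± 0.0212 for HRK1 and 0.338 ± 0.0274 for PTK2. The libraries of PMA1 and PMP3 overlapped in this group, as did those of HRK1 and PTK2 in both proline groups. Among all 5791 ORFs, PMP1 ranked between 3 and 10 in every library and PMA1 between 12 and 18, while PMA2 ranked 4188 and 3217 in WT-Glu and 1500 and 1520 in WT-Pro.

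The nitrogen source was compared in wild-type cells. PMA1 and PMP2 were lower in proline, by 3.50-fold and 4.05-fold, and PMA2 was 3.89-fold higher. By limma with Benjamini-Hochberg adjustment over 5645 ORFs, an ORF being called where the adjusted p was 0.01 or less and the change 2-fold or more, 1 of 7 members was called higher, where 13.0% of all ORFs were, and 2 of 7 were called lower, where 15.6% were. At any fold, 6 of 7 members passed the adjusted p, where 48.5% of all ORFs did. The median log2 fold change of the members was -0.92, and that of all ORFs tested was 0.04.

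The pump genes themselves moved in opposite directions. PMA1, the major pump, had 384522 and 420144 scaled reads in WT-Glu, 109988 and 119856 in WT-Pro and 107587 and 121633 in dal80-Pro. Every proline library was thus below every glutamine library, and the proline groups overlapped. The log2 fold change in wild-type cells was -1.81 (SE 0.30, limma adjusted p = 0.0014). The adjusted p rose to 0.011 without the first WT-Pro library, at a log2 fold change of -1.75, and PMA1 was then not called. Nor was it called when the replicate numbers were crossed between WT-Glu and WT-Pro as a block (limma adjusted p = 0.018).

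Relative to all ORF reads, PMA1 took 2.33% and 2.50% in WT-Glu, 1.28% and 1.33% in WT-Pro and 1.07% and 1.11% in dal80-Pro. When libraries were scaled to their totals of ORF reads instead of by the deposited factors, the log2 fold change of PMA1 was -0.89 (limma adjusted p = 0.0026), short of the 2-fold threshold. That scaling moved the median of all ORFs to 0.96. Relative to the median PMA1 was at -1.85 under either scaling. This is no separate check, because 1 factor per library shifts PMA1 and the median alike.

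PMA2, the minor isoform, had 426 and 781 scaled reads in WT-Glu, 2253 and 2243 in WT-Pro and 2037 and 1529 in dal80-Pro. The WT-Glu libraries were the 2 lowest of the 6 and differed from each other more than those of WT-Pro did. The log2 fold change was 1.96 (SE 0.27, limma adjusted p = 5.7e-04), and the call held under all 17 alternative settings, over which the value ranged from 1.52 to 2.88. Despite this rise PMA2 stayed a small part of the pump transcripts. Its share of the PMA1 and PMA2 scaled reads per nucleotide was 0.107% and 0.180% in WT-Glu, 1.95% and 1.78% in WT-Pro and 1.80% and 1.20% in dal80-Pro. Expressed as a ratio, PMA1 was 931 and 555 times denser than PMA2 in the WT-Glu libraries and 50.3 and 55.1 times denser in the WT-Pro libraries. These ratios did not overlap between nitrogen sources, but with 2 libraries against 2 an exact permutation test cannot give a two-sided p below 0.333.

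**Figure D1:**
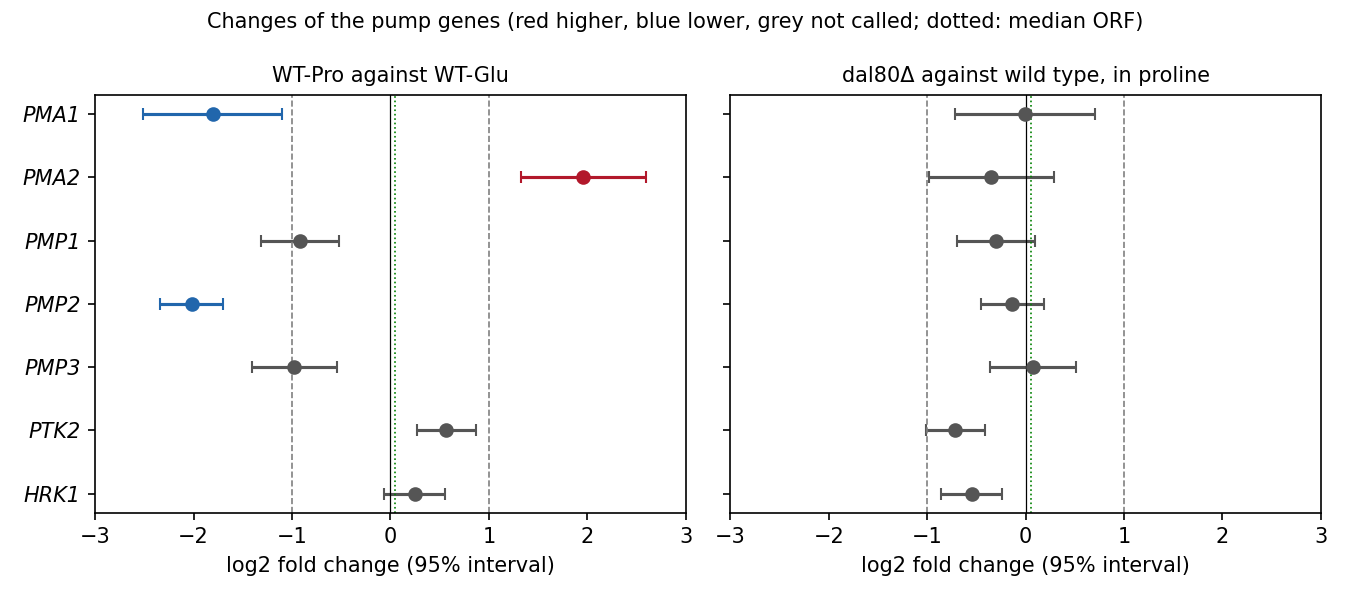
Log2 fold change of each member with its 95% interval from limma, for proline against glutamine in wild-type cells (left) and for dal80Δ against wild type in proline (right); dashed lines mark a 2-fold change and the dotted line the median of all ORFs tested. In the left panel PMA1 (-1.81) and PMP2 (-2.02) lie beyond the threshold on one side and PMA2 (1.96) on the other; in the right panel all 7 points lie inside it.

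The proteolipid genes, whose coding sequences are shown above, did not change equally. PMP2 had 10444 and 9710 scaled reads in WT-Glu, 2560 and 2408 in WT-Pro and 2108 and 2424 in dal80-Pro, with no overlap between glutamine and proline. Its log2 fold change was -2.02 (SE 0.14, limma adjusted p = 3.1e-05) and it was called lower under all 17 alternatives, with values between -2.07 and -1.10.

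PMP1 had 23773 and 25838 scaled reads in WT-Glu, 13984 and 12235 in WT-Pro and 10069 and 11213 in dal80-Pro. The groups of this gene did not overlap, but the log2 fold change of -0.92 between nitrogen sources (SE 0.17, limma adjusted p = 0.0023) was short of 2-fold. Without the first WT-Pro library it was called, at -1.02 (limma adjusted p = 0.0088), and without the second it was -0.83, at an adjusted p of 0.018 by limma. Its share of all ORF reads was 0.149% ± 0.00704 in WT-Glu and 0.149% ± 0.0189 in WT-Pro (SD, n = 2), although its scaled reads were lower in proline. In dal80-Pro the share was 0.101% ± 0.00157, below that of every wild-type library.

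The ratio of PMP1 to PMP2, per nucleotide, was 2.44 and 2.86 in WT-Glu, 5.86 and 5.45 in WT-Pro and 5.13 and 4.97 in dal80-Pro. In every library PMP1 was the denser gene, and its lead was greater in all 4 proline libraries than in both glutamine libraries. This ratio is taken within a library and does not depend on the scaling. PMP2 relative to PMA1, by contrast, lay between 0.483 and 0.567 in WT-Glu and between 0.420 and 0.486 in WT-Pro, ranges that overlapped. PMP1 relative to PMA1 was 1.39 and 1.38 in WT-Glu and 2.85 and 2.29 in WT-Pro. All these ratios are per nucleotide of ORF, and their size depends on the length used, as do the densities above.

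**Figure D2:**
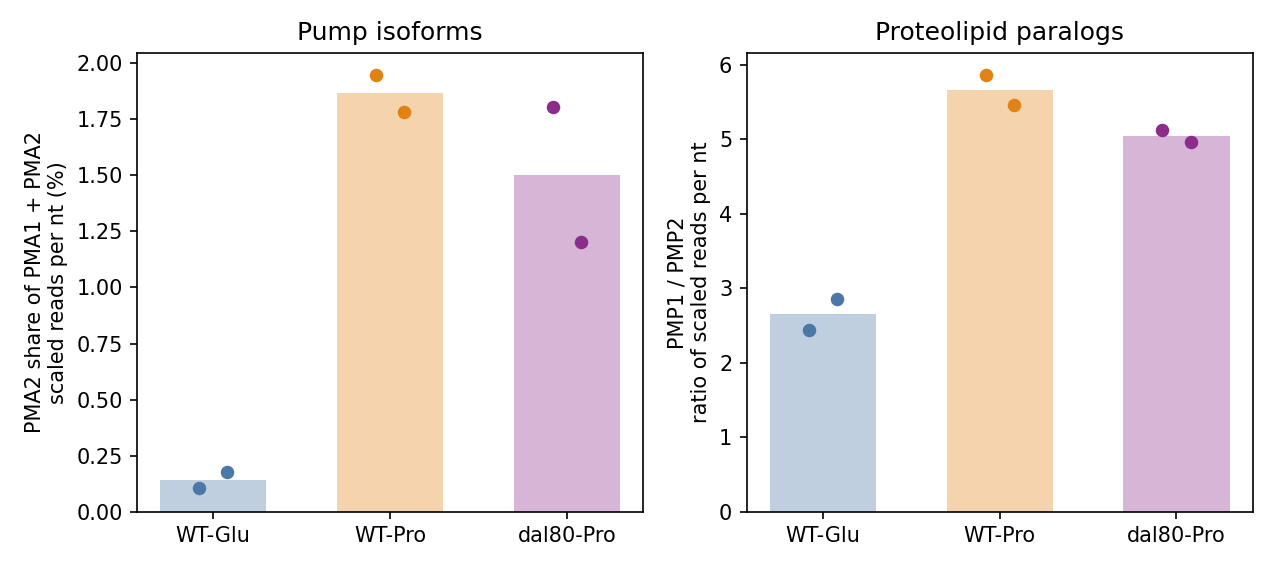
Share of PMA2 in the pump transcripts (left, percent of PMA1 plus PMA2 scaled reads per nucleotide) and ratio of PMP1 to PMP2 scaled reads per nucleotide (right) in each library (points) with group means (bars). The PMA2 share is 0.107% and 0.180% in WT-Glu and at least 1.20% in the proline libraries, and the proteolipid ratio is at most 2.86 in WT-Glu and at least 4.97 in proline.

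PMP3 had 10645 and 12457 scaled reads in WT-Glu, 5989 and 5722 in WT-Pro and 5278 and 7186 in dal80-Pro. As for PMP1, the values in proline were all below those in glutamine, with a change of -0.98 on the log2 scale in wild-type cells (SE 0.19, limma adjusted p = 0.0027) that missed the 2-fold threshold. It was past it without the first WT-Glu library, at -1.09 (limma adjusted p = 0.0020). Leaving out a WT-Pro library gave -1.01 and -0.94, with adjusted p of 0.016 and 0.020 by limma. With libraries scaled to their totals, PMP1 and PMP3 were at log2 fold changes of -0.0024 and -0.06, with limma adjusted p of 0.99 and 0.76.

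The kinase genes were scarce only beside the abundant members. Among all 5791 ORFs in WT-Glu, PTK2 ranked 2642 and 2812 and HRK1 2344 and 2548. Neither was called between nitrogen sources under the deposited scaling. PTK2 had 968 and 871 scaled reads in WT-Glu, 1434 and 1293 in WT-Pro and 783 and 878 in dal80-Pro. WT-Pro was above both other groups, which overlapped with each other. The log2 fold change between nitrogen sources was 0.57 (SE 0.13, limma adjusted p = 0.0059), below 2-fold. Leaving out any 1 library other than the first WT-Glu library raised the limma adjusted p to between 0.013 and 0.041. HRK1 had 1065 and 950 scaled reads in WT-Glu, 1108 and 1284 in WT-Pro and 851 and 783 in dal80-Pro. Its log2 fold change was 0.25 (SE 0.13, limma adjusted p = 0.14), with a 95% interval of -0.06 to 0.55. Under scaling to totals both kinase genes were called higher in proline, PTK2 at 1.49 and HRK1 at 1.16. The median ORF was then at 0.96, and 2661 of 5645 ORFs were called higher.

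**Figure D3:**
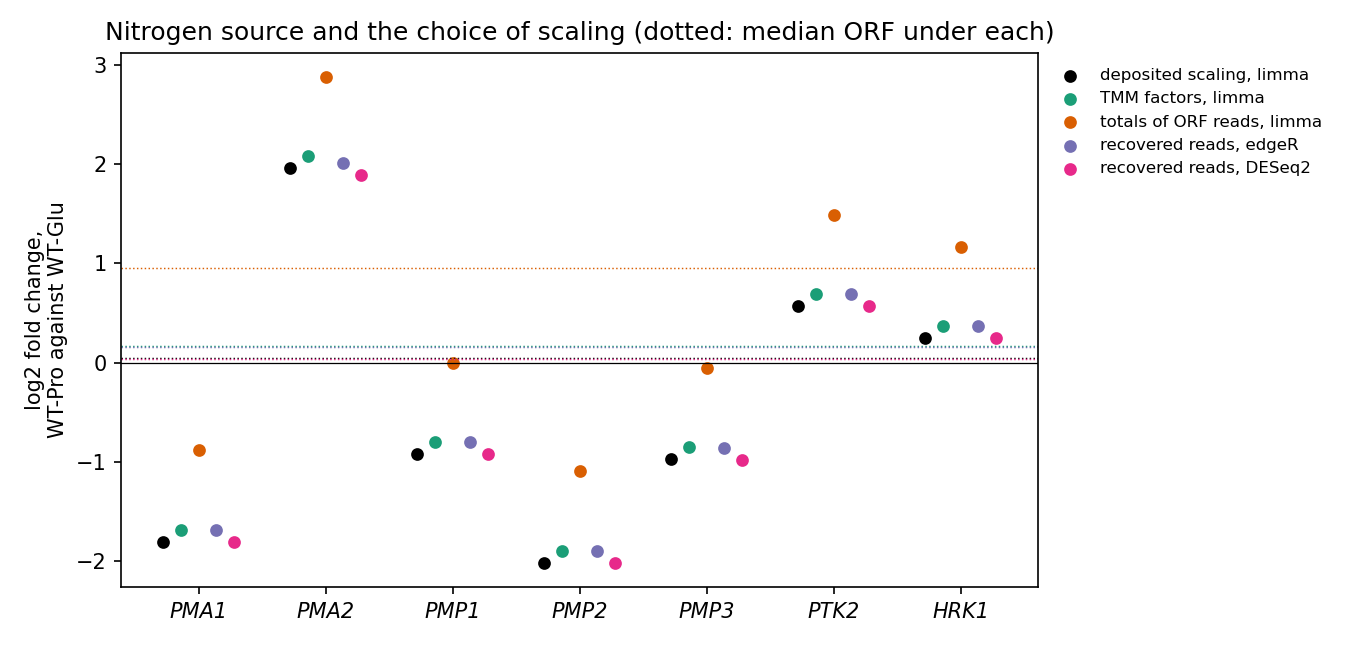
Log2 fold change of each member between WT-Pro and WT-Glu under 5 ways of scaling or testing (colours), with the median of all ORFs under each as a dotted line. Scaling to totals of ORF reads raises the median ORF to 0.96 and every member with it, so that PMP1 and PMP3 come to lie near 0, while PMA1 (-0.89), PMP2 (-1.10) and PMA2 (2.88) keep their sides.

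The loss of DAL80 was then examined in proline. None of the 7 members was called. PMA1, the densest of the pump genes, was at a log2 fold change of -0.01 between dal80-Pro and WT-Pro, with a 95% interval of -0.71 to 0.70 that leaves room for a change of up to 1.64-fold in either direction. With the same limma test and thresholds, 0 of 7 members were higher, where 3.60% of all ORFs were, and 0 of 7 were lower, where 4.43% were. The lowest unadjusted limma p of the members were 6.6e-04 for PTK2 and 0.0037 for HRK1. On the recovered reads edgeR and DESeq2 also called none. At any fold 1 member, PTK2, passed the adjusted p, where 13.7% of all ORFs did. The median of the members was -0.30, against 0.05 for all ORFs.

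PTK2 was lower by the log2 measure, at -0.71 (SE 0.13, limma adjusted p = 0.0062), which corresponds to 0.609 of the wild-type level. Leaving out any 1 of the 4 libraries compared raised the adjusted p to between 0.022 and 0.059, with values from -0.80 to -0.63. HRK1 was at -0.55 (SE 0.13, limma adjusted p = 0.019), with an adjusted p of 0.0035 by DESeq2. Both dal80-Pro libraries lay below both WT-Pro libraries for 4 of 7 members (PTK2, HRK1, PMA2 and PMP1), as they did for 32.8% of all ORFs.

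The other members gave log2 fold changes of -0.35 for PMA2 (95% interval -0.98 to 0.28), -0.30 for PMP1 (-0.70 to 0.10), -0.14 for PMP2 (-0.45 to 0.18) and 0.07 for PMP3 (-0.36 to 0.51), with limma adjusted p between 0.22 and 0.79. Since both comparisons use the WT-Pro libraries, a high or low WT-Pro value moves them in opposite directions, and the values of PTK2 (0.57 and -0.71) are given side by side for this reason without a test across them.

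Lists of related genes were looked up in the same fits. They describe those genes only, and no test was made of a list. Among 6 genes for the maturation, export and targeting of Pma1, 2 were called lower in proline, where 15.6% of all ORFs were, and none higher. The median log2 fold change was -0.61. LST1, which encodes a COPII coat subunit that packs Pma1 into vesicles, had 4868 and 5028 scaled reads in WT-Glu and 1788 and 1757 in WT-Pro, or -1.48 on the log2 scale (SE 0.12, limma adjusted p = 6.1e-05). PSG1, which encodes a Golgi protein that stabilises newly made Pma1, was at -1.04 (SE 0.12, limma adjusted p = 2.5e-04), and its fold was below 2 with TMM factors (-0.92), with edgeR (-0.92) and without the first WT-Pro library (-0.99). Under scaling to totals neither was called, and the median of the 6 genes was 0.31, positive but below the 0.96 of the median ORF. None of the 6 was called between dal80-Pro and WT-Pro.

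The list of 8 relatives of PTK2 and HRK1 holds the rest of the Npr1 and Hal5 kinase family, which is known for its action on permeases and ion transport. In proline 3 of these 8 were called higher, where 13.0% of all ORFs were, and none lower, with a median of 0.73. Under scaling to totals the median was 1.65 and 6 were called higher, as were 2661 of 5645 ORFs. RTK1, a kinase gene of little known function, had 466 and 401 scaled reads in WT-Glu, 1598 and 1335 in WT-Pro and 460 and 469 in dal80-Pro. It was called higher in proline (1.75, SE 0.14, limma adjusted p = 5.8e-05) and lower in dal80-Pro than in WT-Pro (-1.65, SE 0.14, limma adjusted p = 1.9e-04). WT-Pro stood apart from both other groups, as it did, to a smaller extent, for PTK2. NPR1, whose kinase keeps nitrogen permeases at the cell surface in poor nitrogen, rose from 1016 and 1062 scaled reads to 2439 and 2353 (log2 fold change 1.20, SE 0.11, limma adjusted p = 1.1e-04) and was at 2369 and 2260 in dal80-Pro. PRR2 had only 20 and 24.6 scaled reads in WT-Glu and 64.4 and 59.3 in WT-Pro (1.44, SE 0.23, limma adjusted p = 0.0011), and its adjusted p was 0.011 without the first WT-Pro library.

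The vacuolar proton pump is a different, multi-subunit ATPase that acidifies the vacuole. Of 18 genes for its subunits and assembly factors, 9 were called lower in proline and 1 higher. Of all ORFs 15.6% were called lower and 13.0% higher. The median log2 fold change of the 18 genes was -0.98. Relative to the median of all ORFs the list was at -1.02 under either scaling, because 1 factor per library shifts the list and the median alike. Under totals only 1 was called lower and 3 higher, where 189 of 5645 ORFs were lower and 2661 higher. VMA3, for the proteolipid ring, had 27258 and 27210 scaled reads in WT-Glu and 6578 and 7294 in WT-Pro (-1.98, SE 0.19, limma adjusted p = 1.2e-04). VMA1, for the catalytic subunit, was at -1.74 (SE 0.22, limma adjusted p = 3.5e-04) and VMA16, for another proteolipid, at -1.53 (SE 0.15, limma adjusted p = 1.2e-04), and under totals VMA3 alone of these 3 stayed called. The gene called higher, VMA22, encodes an assembly factor and is named after its values were seen. Its log2 fold change was 1.21 (SE 0.20, limma adjusted p = 0.0015), and the call was lost without the first WT-Glu library (0.96) and without the second WT-Pro library, where the adjusted p was 0.014.

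In dal80-Pro 1 of these 18 genes was called higher than in WT-Pro, where 3.60% of all ORFs were, and none lower, at a median of 0.46. This was VMA4, for a subunit of the peripheral stalk, also named after its values were seen, with 2388 and 2664 scaled reads in WT-Pro and 5903 and 6684 in dal80-Pro (1.32, SE 0.14, limma adjusted p = 5.0e-04).

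**Figure D4:**
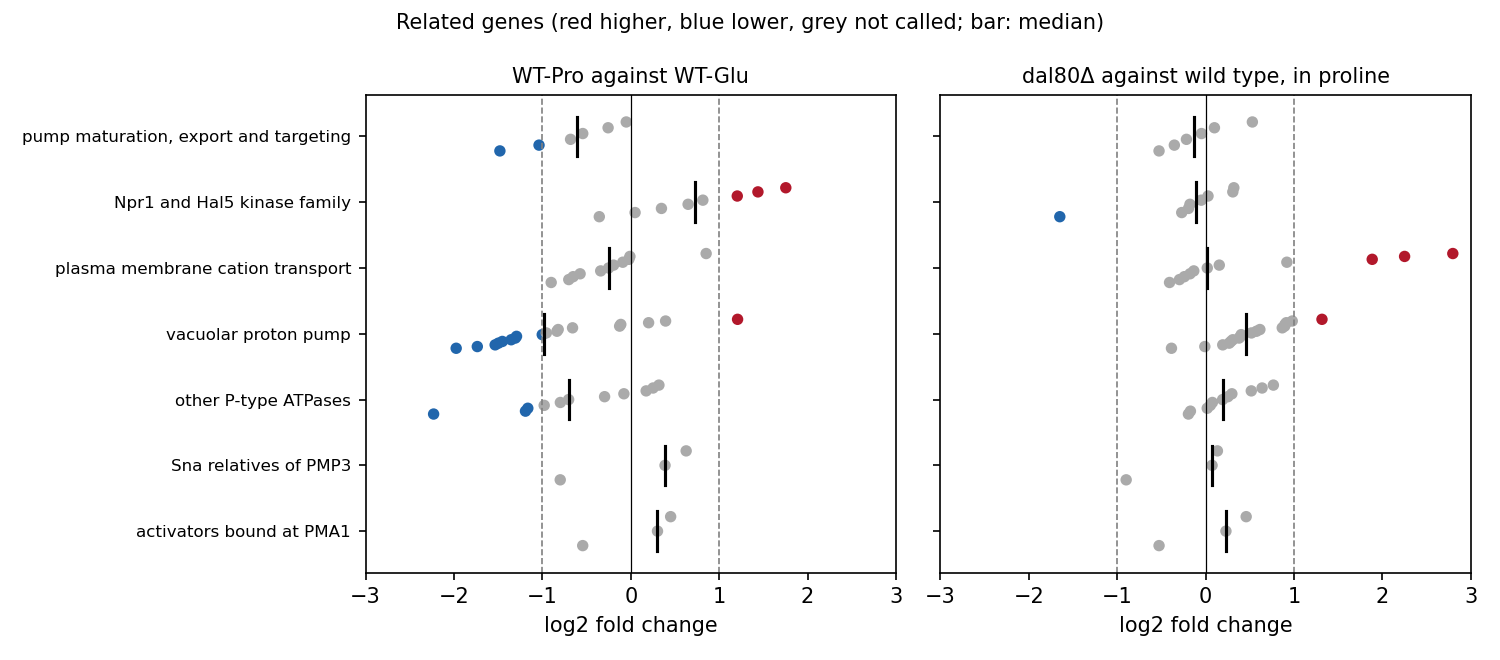
Log2 fold change of every gene of the 7 lists of related genes (points) and the list medians (bars), for proline against glutamine in wild-type cells (left) and dal80Δ against wild type in proline (right); dashed lines mark a 2-fold change. On the left 9 of 18 vacuolar pump genes are called lower (15.6% of all ORFs) and 3 of 8 kinases higher (13.0% of all ORFs). On the right the 3 genes called higher for cation transport are ENA1, ENA2 and ENA5, where 3.60% of all ORFs are called higher.

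Among 11 other P-type ATPases, the wider family of Pma1, 3 were called lower in proline, where 15.6% of all ORFs were, and none higher. The median log2 fold change was -0.70. SPF1, for an ATPase of the endoplasmic reticulum, fell from 20111 and 23083 to 4659 and 4523 scaled reads (-2.23, SE 0.15, limma adjusted p = 3.3e-05), whereas PMR1, for the calcium and manganese pump of the Golgi, was at -1.19 and DNF2, for a phospholipid flippase of the plasma membrane, at -1.16 (both SE 0.13, limma adjusted p = 1.8e-04). Under scaling to totals PMR1 and DNF2 were not called, and 3 other genes were called higher, as were 2661 of 5645 ORFs. The median of the 11 turned to 0.22, below that of all ORFs. None of the 11 was called between the strains. The list does not hold ENA1, ENA2 and ENA5, P-type ATPases that were called higher in dal80-Pro and are given below.

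A further list of 11 genes covers the transport of potassium and sodium across the plasma membrane and its regulation. None of these 11 genes was called between nitrogen sources, with log2 fold changes from -0.90 to 0.85. Under scaling to totals 1 was called higher, where 2661 of 5645 ORFs were. In dal80-Pro 3 of 11 were called higher than in WT-Pro, where 3.60% of all ORFs were. The 3 genes were the sodium efflux ATPases ENA1, ENA2 and ENA5. ENA1 had 783 and 905 scaled reads in WT-Glu, 705 and 626 in WT-Pro and 4913 and 4348 in dal80-Pro, a log2 fold change of 2.80 between the strains (SE 0.14, limma adjusted p = 1.7e-05). ENA2 was at 2.25 (SE 0.12, limma adjusted p = 2.1e-05) and ENA5 at 1.88 (SE 0.11, limma adjusted p = 4.2e-05). The ENA genes are near-identical tandem copies, so the division of reads among them is uncertain. None of the 3 relatives of PMP3 (SNA2, SNA3 and SNA4) was called in either comparison under the deposited scaling. Nor was any of the 3 genes for activators known to act at the PMA1 promoter (RAP1, GCR1 and GCR2). Under scaling to totals 2 of each 3 were called higher in proline, as were 2661 of 5645 ORFs. SNA4 was then called lower in dal80-Pro, as were 440 of 5645 ORFs.

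The genes whose pattern over the 6 libraries was most like that of each member were found by the root mean square difference of centred log2 scaled reads. For PMA1 these were TAT2, for an aromatic amino acid permease driven by the proton gradient, OST1 and MET10 (0.0613, 0.0615 and 0.0662), where the median over all ORFs was 0.915. PMP2 was closest to PGM1, HEM13 and ERG4 (0.122, 0.138 and 0.14) and PMA2 to JHD2, RAD55 and NKP1 (0.161 to 0.199), which are looser matches. PMP3 was closest to FMP52, SRB2 and COF1, PTK2 to TYW3, PNG1 and TGL4, and HRK1 to ICP55, AAT1 and UBS1, all at 0.0494 to 0.0750. Libraries of a group share medium and strain, and these values are a description.

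PMP1 was closest to YPL279C (0.0511), YCR024C-B (0.0529) and PRE4 (0.0574). YCR024C-B is its neighbour, an ORF on the same strand whose near end lies 79 nt from the stop codon side of PMP1 (chr3:162599-162865). It had 22036 and 23841 scaled reads in WT-Glu, 13152 and 11852 in WT-Pro and 9989 and 11439 in dal80-Pro. These totals were close to those of PMP1, but over 267 bases instead of 123. Per nucleotide the levels differed, at 82.5 and 89.3 in WT-Glu for YCR024C-B and 193 and 210 for PMP1. The deposited transcript of PMP1 covers no more than its 123 bases of ORF, while those of the other 6 members include untranslated ends. For PMP2, between 45.4% and 51.1% of the transcript reads lay in the ORF, and for PMA1 between 85.4% and 91.6%. Whether reads on YCR024C-B come from the end of the PMP1 transcript was not tested.

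GATA motifs were counted in the 500 bases before each ORF, as GATAA or GATTAG on either strand. PMA1 had 4, PMA2 had 3, PMP1 and PTK2 had 2 each, and PMP2, PMP3 and HRK1 had none. Of all 5770 ORFs with such a window 82.4% had at least 1, 50.6% at least 2 and 9.72% at least 4. Matches of these letters are a description and not evidence of binding, nor is their absence evidence against it. The study's list of promoters bound by Dal80 holds PMP1, PMP2, PMP3 and PTK2, but not PMA1, PMA2 or HRK1. PMA1 is in its list of ORFs bound by Dal80.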

How the data were processed

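RNA-Seq was performed by the authors on rRNA-depleted total RNA with strand-specific paired reads of 50 nt. Per the submitters' processing notes the reads were aligned with TopHat to build R64, and uniquely mapped reads were counted. The deposited values of the first WT-Glu library are whole counts. Those of the other 5 libraries are a signal, counts multiplied by the authors by 1 factor per library (0.551 to 0.983), and undoing the factor gave whole reads at every value (tolerance 1e-06). The methods describe scaling by total ORF reads, which these factors do not follow, so this was an alternative. Columns of authors' densities and means were not used for tests. Of 11987 features (6 further lines are empty), 5795 are ORFs, and 4 plasmid ORFs were left out.

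limma (3.58.1, R 4.3.3) with a trend was fitted to log2(scaled reads + 1) with 1 term per group over all 6 libraries, after filterByExpr, which left 5645 ORFs. Fold changes are on this scale and understate those of low genes. The script was tested on simulated data. Alternatives were edgeR (4.0.16) and DESeq2 (1.42.0) on recovered reads, TMM factors, totals, no filter, pseudocounts of 0.5 and 10, transcript values, only the 4 libraries compared, a replicate block and leaving out each library.

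The members and lists were chosen with earlier results of these data known. Named were all members, up to 3 called genes per list by size of change, the 3 ORFs most like each member, and DAL80. The paper calls the cultures biological replicates. Reads carry no molecular identifiers. ORF coordinates were checked against RefSeq for R64 (5754 of 5786 have the same start and end, as do all 7 members).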

Additional observations from a re-analysis of the deposited data

How the results depend on the processing

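Among the members, PMA2 and PMP2 kept their calls between nitrogen sources under all 17 alternatives, PMA1 lost its call under 3, and PMP1, PMP3, PTK2 and HRK1 each gained one under 1. No direction of a called member reversed. Between nitrogen sources the counts moved most with the scaling: with totals of ORF reads, 2661 ORFs were called higher in proline and 189 lower in place of 733 and 878, and 3 members were called higher and 1 lower in place of 1 and 2. In dal80-Pro totals gave 138 ORFs higher and 440 lower in place of 203 and 250, and moved the median ORF to -0.21. The factors of edgeR and TMM moved the median between nitrogen sources to 0.15 and 0.16. No member was called between dal80-Pro and WT-Pro under any of 16 alternatives. Leaving out 1 library in turn gave 75 to 237 ORFs called higher and 126 to 284 lower in dal80-Pro (75 and 126 without the first dal80-Pro library, 91 and 151 without the second, 104 and 159 without the first WT-Pro library). For proline against glutamine it gave 633 to 809 higher and 773 to 927 lower, with 1 member higher and 2 to 3 lower. Fits without 1 library leave a lone sample that is assumed to vary like the other groups.

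Same-numbered libraries did not deviate together (correlations of -0.24, 0.18 and 0.03), and with a replicate block 706 ORFs were higher and 870 lower in proline, 167 were higher in dal80-Pro, and the members called were 1 higher, 2 lower and none in dal80-Pro, while PTK2 had a limma adjusted p of 0.013 for the nitrogen source and 0.016 for dal80Δ. Crossing the numbers between WT-Glu and WT-Pro, a pairing added after seeing the data, gave 752 higher and 885 lower, with 1 member lower, as PMA1 lost its call.

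With 2 libraries per group, the 95% interval of PMA1 between the proline groups reached 1.64-fold. PRR2 in glutamine rests on few reads, and PMA2 differed between the 2 WT-Glu libraries (426 and 794 reads).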
